A study of Oryza sativa Japonica Group with 6 samples.

Results

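The SWEET genes encode sugar transporters of plant membranes. Of 10 rice SWEET genes chosen by name (SWEET1A, SWEET2A, SWEET3A, SWEET4, SWEET11, SWEET12, SWEET13, SWEET14, SWEET15 and SWEET16), 8 had a probe set on the array, a group of short oligonucleotides that together read a transcript. These 8 genes, of the 17905 genes with a probe set of their own, have 10 of the 57381 probe sets, with 2 probe sets each for SWEET1A and SWEET14. A probe set was taken when its annotation held exactly 1 gene and that gene carried a member's symbol or synonym. The rule itself uses no measured value. SWEET3A and SWEET13 had no such probe set and were not analysed here.

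The data are from Affymetrix arrays of rice (Oryza sativa, Japonica Group) at an age of 1 month, with 2 arrays in each of 3 groups. The overexpression group was the line S58S, which overexpresses the splicing factor gene OsSKIPa and was selected on hygromycin. The suppression group was the line S59R, in which OsSKIPa is suppressed and which was selected on G418. The wild type was the cultivar Zhonghua11, for which no selection is described. All plants were germinated on MS medium and moved to hydroponics at 10 days. OsSKIPa itself could not be followed, because no probe set carried its name, so the labels of the lines rest on the real-time RT-PCR check they mention. Each line had its own selection drug, so effects of the drug and of the transgene cannot be told apart. The promoter of the transgenes and the number of independent transformants are not given in the sources used here. The labels speak of biological repeats but not of separate cultures, so p-values measure the spread between these samples, which may be partly technical.

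SWEET proteins let sugars pass a membrane along their gradient and do not depend on a proton gradient as the sucrose transporters of the SUT family do. Those that carry sucrose across the plasma membrane supply the phloem and developing seeds, and others carry hexoses or sit in the vacuole membrane. In rice, SWEET11 and SWEET14 are also known as targets that the bacterial blight pathogen Xanthomonas oryzae switches on with its effector proteins.

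Values are signal intensities on a linear scale, with arrays scaled by the depositors to a trimmed mean of 500.06. Probe sets differ in affinity, so levels are compared within a probe set and never between genes. There is no detection call in the files. The array median, 58.4 to 66 for the 6 arrays, serves as a mark of dim signal, and a probe set was tested when it exceeded that median on 2 or more of the 6 arrays. Of the 10 member probe sets 9 were tested, for 7 genes, and SWEET12 was left out. Leaf and root marker lists were used to check the organ, which the labels call both shoots and whole plants. The markers of both organs gave signal. The 4 leaf marker genes summed to between 76500.8 and 86178.3 on each array and the 8 root marker genes to between 7407.1 and 12309.9, with 1 root marker gene, PHT1;6, below the median on all arrays. Such sums weigh the brightest genes most, among the root markers LSI1 (3662.3 to 7418.7), and are not compared between organs. The overexpression arrays had the highest 3' to 5' ratio of the actin control, which rises as RNA degrades, at 3.43 and 3.73 against 2.75 to 2.89 on the other 4. The ratio of the GAPDH control did not separate the groups, at 2.19 and 1.89 against 1.66 to 1.9. The 18S control was lowest on the suppression arrays, at 3673.9 and 3885.3 against 4949.6 to 5450.5. The part of these differences in the results below was not tested.

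SWEET14, a sucrose transporter of the plasma membrane that takes part with SWEET11 in grain filling, was the one member called in any comparison. Its first probe set read 315.4 and 348.9 under overexpression, 180.6 and 187.7 in the wild type and 73.1 and 101 under suppression. Its second probe set read 558.1 and 459.9 under overexpression, 333.8 and 353.1 in the wild type and 157.4 and 194.6 under suppression. In both probe sets the overexpression arrays were the highest, the suppression arrays the lowest and the wild type between them, with no overlap of groups. Under suppression, the first probe set was not far above the array medians (73.1 and 101 against 60.1 and 58.4). Both probe sets were designed from the same cDNA and are not independent readings. By the manufacturer's naming, the second holds probes that can bind related sequences.

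**Figure D1:**
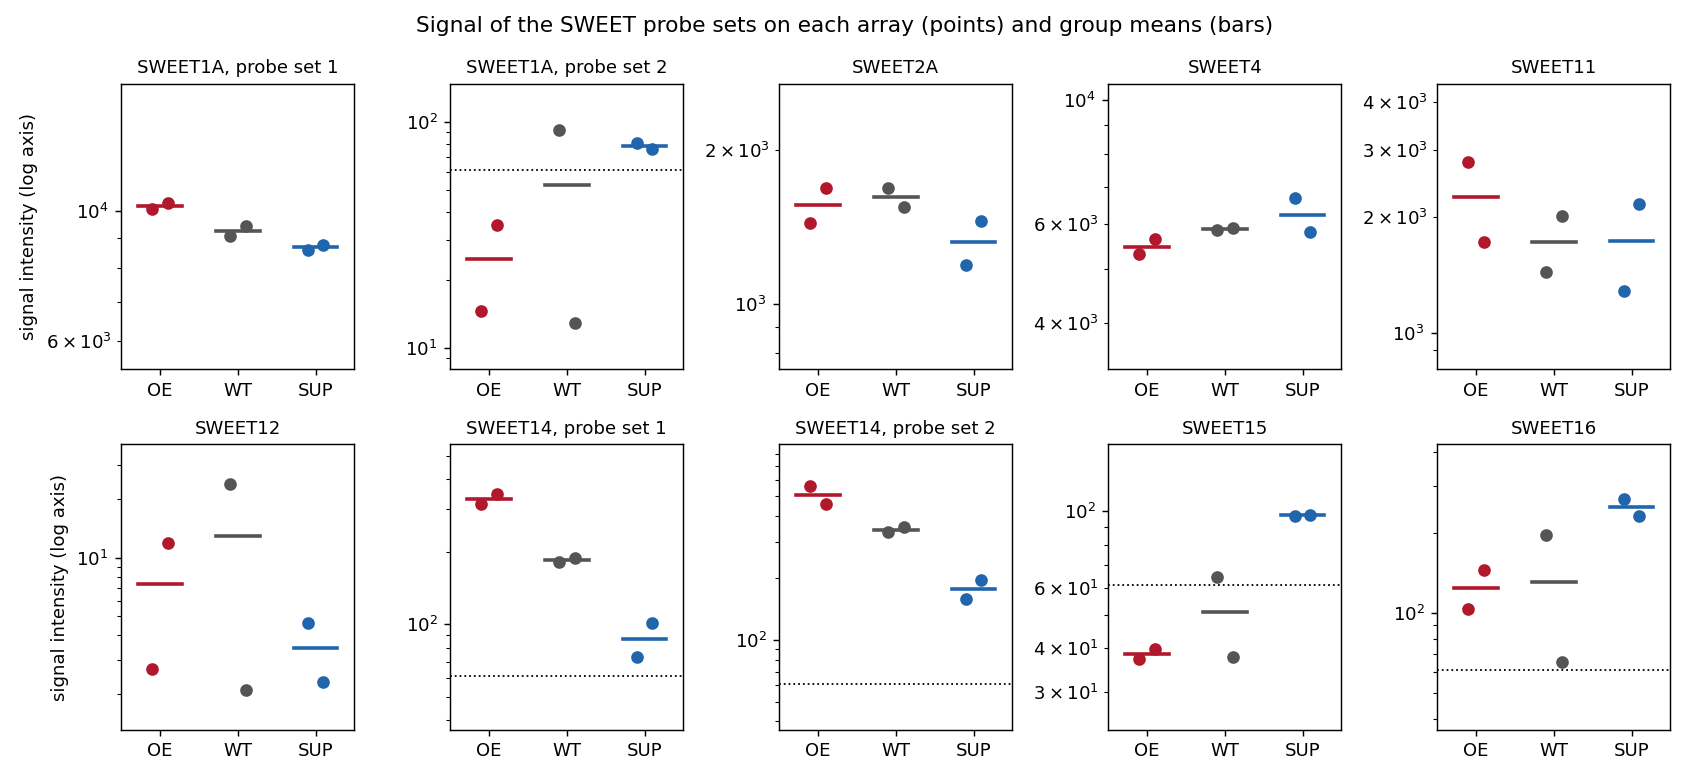
Signal intensity (log axis, a range of its own in each panel) of the 10 SWEET probe sets on the 6 arrays, with points for arrays and bars for group means in the overexpression line (OE), the wild type (WT) and the suppression line (SUP). The dotted line, drawn where it falls within the panel, is the mean of the array medians. SWEET14 falls in steps from OE to WT to SUP in both of its probe sets, whereas SWEET15 and SWEET16 are highest in SUP.

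The comparison of the lines with each other asks which transcripts differ between the overexpression and the suppression line, which also differ in selection drug. SWEET14 was higher in the overexpression line in both probe sets. The mean of the first was 332.2 ± 23.7 against 87.1 ± 19.7 (SD, n = 2 each), a ratio of 3.82 and a log2 difference of 1.91 ± 0.24 (SE; limma adjusted p = 0.00457). The mean of the second was 509 ± 69.4 against 176 ± 26.3 (SD, n = 2 each), a ratio of 2.89 and a log2 difference of 1.52 ± 0.19 (SE; limma adjusted p = 0.00449). These were the 2 calls among the 9 member probe sets, both for 1 gene, where 6.56% of all 30366 tested probe sets were called, 3.63% higher and 2.93% lower. An unadjusted p under 0.05 was reached by 4 member probe sets of 3 genes (both of SWEET14, the first of SWEET1A and that of SWEET15) and by 23.1% of all tested probe sets. SWEET15 entered the test only through the suppression arrays, where it is high, so its place in this count is tied to the filter. A log2 difference in the same direction and at least as large as the smaller SWEET14 value was seen in 1.13% of all tested probe sets. Equally large differences in the other direction are not in that share. Both calls held in each of the 6 fits that left out 1 array, with log2 differences of 1.68 to 2.13 and 1.37 to 1.67. Both were lost when the variance was moderated without a trend on the mean, with adjusted p = 0.0507 and 0.0542.

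Against the wild type, SWEET14 was lower in the suppression line. The second probe set fell by 0.96 ± 0.19 on the log2 scale (SE; limma adjusted p = 0.0426), to 0.512 of the wild-type mean. The first gave a log2 change of -1.07 ± 0.24 (SE; limma adjusted p = 0.0613) and did not pass, at 0.473 of the wild-type mean. The 1 call among 9 member probe sets stands beside 2.3% of all tested probe sets, 1.34% lower and 0.955% higher. At an unadjusted p under 0.05 there were 3 member probe sets, both of SWEET14 and that of SWEET16, where 17.8% of all tested probe sets reached that level. It was lost in each of the 6 fits that left out 1 array (adjusted p = 0.0605 to 0.2), and also without the filter on dim probe sets (0.076), without the variance trend (0.139) and in the fit of the 4 arrays compared (0.0706).

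In the overexpression line against the wild type, SWEET14 gave log2 differences of 0.84 (95% interval 0.30 to 1.38) and 0.56 (0.13 to 0.99), with limma adjusted p = 0.574 and 0.638. No member was called in this comparison by limma, where 0.0494% of all tested probe sets were (0.0395% higher and 0.00988% lower). At an unadjusted p under 0.05 there were 2 member probe sets, both of SWEET14, where 7.11% of all tested probe sets reached that level. Both lines are compared with the same 2 wild-type arrays, so their differences from it are not independent.

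**Figure D2:**
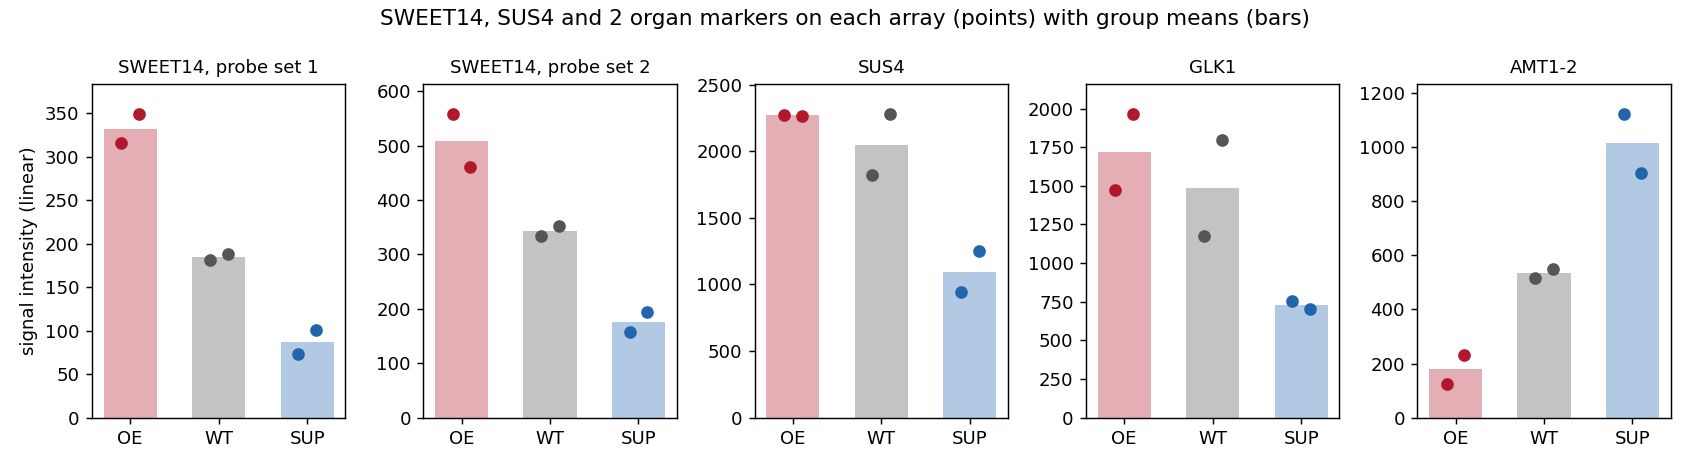
Signal intensity (linear axis from 0) on each array (points) and group means (bars) for the 2 probe sets of SWEET14, for the sucrose synthase gene SUS4, and for the markers GLK1 (leaf) and AMT1-2 (root), in the overexpression line (OE), the wild type (WT) and the suppression line (SUP). The wild-type arrays of SWEET14 lie between those of the lines, whereas those of SUS4 and GLK1 overlap the overexpression arrays and AMT1-2 runs the other way.

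Some markers of organs moved beside SWEET14. Of the 10 tested leaf marker probe sets, 2 were higher in the overexpression line than in the suppression line, those of GLK1, a regulator of chloroplast development (log2 difference 1.22, adjusted p = 0.0169), and 1 of the 4 for RCA, rubisco activase (0.37, adjusted p = 0.0266), and the median was 0.45. Of the 6 tested root marker probe sets, 1 was lower, the ammonium transporter gene AMT1-2 (-2.54, adjusted p = 0.00241), and the median was -0.84. Over all tested probe sets, 3.63% were called higher and 2.93% lower between the lines, and the median was 0.01. The root markers summed to 7407.1 and 8596.6 under overexpression, 9119.8 and 12309.9 in the wild type and 10566.2 and 12086.3 under suppression. The summed leaf marker signal overlapped between the groups. Several other markers moved the same way without a call. Between the lines, the root markers LSI2, PT2, LSI1 and PIP2-5 differed by -1.065, -1.09, -0.61 and -0.57. The other RCA probe sets differed by 0.42, 0.54 and 0.50. Some markers were flat or went the other way. Between the lines, the brightest RBCS probe set differed by -0.13 (its others by 0.48 and 0.47), those of CAB2R by 0.03 and -0.01, and the root marker LSI6 by 0.37. The untested root marker NRT2.3 read 60.3 and 74.8 under overexpression and 32.3 and 22.9 under suppression. The leaf median rests largely on several probe sets each of RCA and RBCS. The part of organ makeup in the SWEET14 difference was not tested, and in RNA of whole tissue fewer cells of a type and less RNA per cell cannot be told apart.

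SWEET11, which exports sucrose into the developing rice grain, varied widely within every group. It read 2791.1 and 1724 under overexpression, 1439.1 and 2019.8 in the wild type and 1288.3 and 2173.7 under suppression. All 3 groups overlap, and the log2 difference between the lines was 0.39 (95% interval -0.29 to 1.07; limma adjusted p = 0.482). The interval leaves room for a change as large as 2-fold. By the manufacturer's naming, this probe set can read more than 1 transcript.

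SWEET15, which acts with SWEET11 in grain filling, was dim outside the suppression line. It read 37.2 and 39.8 under overexpression, 64.6 and 37.7 in the wild type and 97.1 and 97.7 under suppression. The suppression arrays were the highest and alone lay above their array median, so the probe set entered the test through that group. The log2 difference of the overexpression line from the suppression line was -1.27 (95% interval -2.33 to -0.21; limma adjusted p = 0.144), which did not pass. SWEET12, a related gene, read between 2.1 and 23.8 on all 6 arrays, below the median of each, and its groups overlap.

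SWEET1A, whose relative in Arabidopsis is a glucose transporter, had a bright first probe set with small differences. It read 10071.7 and 10336.7 under overexpression, 9074.2 and 9428.3 in the wild type and 8592.1 and 8746.2 under suppression. The order of groups is that of SWEET14, without overlap, but the step is small. The log2 difference between the lines was 0.24 (95% interval 0.07 to 0.40; limma adjusted p = 0.0972) and did not pass. The second probe set of SWEET1A was dim and went the other way, with 14.6 and 35.1 under overexpression, 92.4 and 12.9 in the wild type and 80.4 and 76 under suppression (log2 difference between the lines -1.64, 95% interval -3.66 to 0.38; limma adjusted p = 0.31). The second exceeded the array median only on both suppression arrays and wild-type replicate 1, so it passed the filter through the suppression line. The probe sets of this gene thus differ in sign, but their intervals overlap and neither was called.

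Together, 3 of the 9 tested member probe sets, from the 2 genes SWEET14 and SWEET1A, were ordered overexpression above wild type above suppression with no overlap, an order found in 5.12% of all tested probe sets. The reverse order was found in 0 members and in 4.6% of all tested probe sets. Between the lines, the groups of 7 member probe sets did not overlap, where 53.5% of all tested probe sets did not. The same held for 6 members in the suppression line against the wild type (48.7% of all) and for 4 in the overexpression line against the wild type (38.1%). The counts of 7 and 6 include SWEET15, whose suppression arrays alone brought it past the filter. The 7 also include the second SWEET1A probe set, which would not have passed without its suppression arrays. These counts are thus no support for a difference.

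SWEET2A, of a branch whose Arabidopsis member sits in the vacuole membrane of root cells, read 1436.2 and 1682.3 under overexpression, 1684.7 and 1545 in the wild type and 1192.8 and 1453.2 under suppression. The suppression arrays were below both wild-type arrays but overlapped the overexpression arrays. The log2 change in the suppression line against the wild type was -0.29 (95% interval -0.61 to 0.02; limma adjusted p = 0.317).

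SWEET4, a hexose transporter needed for seed filling, read 5310.7 and 5643.3 under overexpression, 5858.1 and 5916.7 in the wild type and 6670.5 and 5817.7 under suppression. The overexpression arrays were the lowest. The difference between the lines was -0.19 on the log2 scale (95% interval -0.40 to 0.03; limma adjusted p = 0.275), so that the interval holds no change as large as 1.5-fold.

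SWEET16, whose relative in Arabidopsis is a sugar transporter of the vacuole membrane, read 103.1 and 144.6 under overexpression, 195.4 and 65.6 in the wild type and 267.6 and 230 under suppression. Both suppression arrays were above the other 4, whereas the wild-type arrays lay on either side of the overexpression arrays. The log2 change in the suppression line was 1.10 against the wild type (95% interval 0.06 to 2.15; limma adjusted p = 0.259) and was not called. It rested on which wild-type array was used, with 1.87 without replicate 1 and 0.34 without replicate 2. Between the lines, the log2 difference was -1.003 (95% interval -2.05 to 0.04; limma adjusted p = 0.235).

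**Figure D3:**
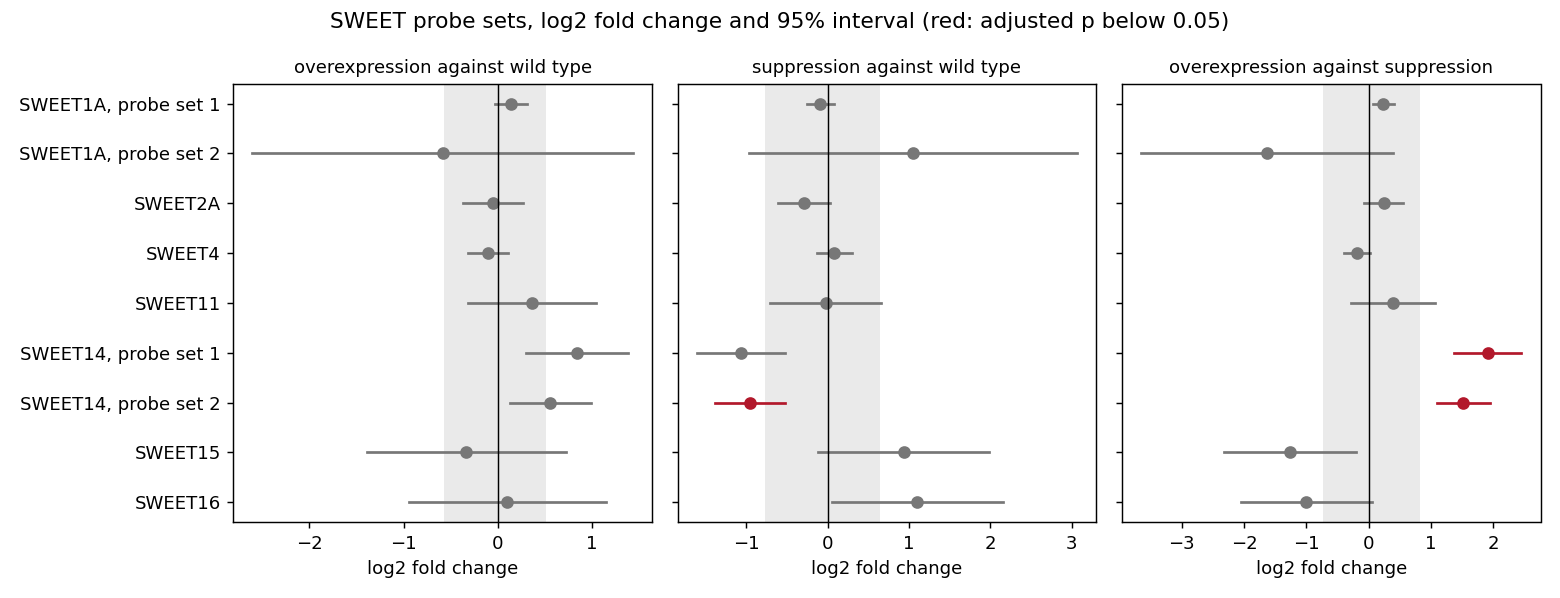
Log2 fold change (points) with its 95% interval (lines) for the 9 tested SWEET probe sets in the 3 comparisons, in red where the adjusted p was below 0.05. The grey band spans the 5th to 95th percentile of all tested probe sets (-0.73 to 0.81 between the lines). Both probe sets of SWEET14 lie above the band between the lines, and SWEET15, SWEET16 and the second probe set of SWEET1A lie below it with wide intervals.

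The median log2 difference over the 9 member probe sets was 0.24 between the lines, 0.10 in the overexpression line against the wild type and -0.03 in the suppression line against the wild type. Over all tested probe sets these medians were 0.01, -0.01 and -0.02. The members did not move one way: besides SWEET14, the values between the lines ran from -1.64 for the second probe set of SWEET1A to 0.39 for SWEET11. The low end is tied to the filter, which that SWEET1A probe set and SWEET15 passed only with their suppression arrays.

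Other SWEET genes on the array, looked up after the members' values were known, gave no call by limma in any comparison (0 of 4 tested probe sets). SWEET1B read 1175.6 and 1453 under overexpression, 1026.5 and 1208.6 in the wild type and 972.1 and 847.1 under suppression. Its log2 difference between the lines was 0.52 (95% interval 0.18 to 0.87; limma adjusted p = 0.0801). It was the 1 of the 4 with an unadjusted p under 0.05 between the lines, where 23.1% of all tested probe sets reached that level. SWEET5 was below the median on all arrays, and SWEET2B and SWEET6A differed between the lines by -0.13 to 0.09 on the log2 scale.

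The other genes that load, cleave and resynthesise sucrose were followed in 5 lists with 30 tested probe sets of 27 genes. Between the lines 1 was higher, 0 lower and 29 not called, and in the suppression line against the wild type 1 was lower, 0 higher and 29 not called. Over all tested probe sets the shares called were 6.56% and 2.3%, so the lists did not hold more calls than the array as a whole between the lines. Each time the gene was SUS4, a sucrose synthase gene whose product cleaves sucrose in the cytosol. SUS4 read 2274.1 and 2263.9 under overexpression, 1821.5 and 2279.4 in the wild type and 940.4 and 1247.5 under suppression. The suppression arrays were well below the other 4, and the overexpression and wild-type arrays overlap. SUS4 fell by 0.91 ± 0.16 on the log2 scale in the suppression line against the wild type (SE; limma adjusted p = 0.0306). It was higher by 1.06 ± 0.16 in the overexpression line than in the suppression line (SE; limma adjusted p = 0.0103). The other members of its list did not all share its direction. In the list of sucrose synthesis and cleavage, 6 of 11 probe sets had an unadjusted p under 0.05 between the lines. That level was reached by 23.1% of all tested probe sets. Of the 6, SUS4 and SUS6 had higher values in the overexpression line. Both probe sets of SUS1 had lower ones, as had SPP1 and SPP2, genes for the phosphatase of the last step of sucrose synthesis. SPP1 came nearest to a call, with a log2 difference of -0.68 (limma adjusted p = 0.0554). The call of SUS4 against the wild type was kept in 1 of the 6 fits that left out 1 array, the one without suppression replicate 3, and that between the lines in 4, being lost without either overexpression array (adjusted p = 0.0526 and 0.0643). Both calls of SUS4 were lost without the variance trend (adjusted p = 0.171 and 0.0987), and that against the wild type also in the fit of the 4 arrays compared (0.0517).

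Among the sucrose transporters, which move sucrose with protons, 0 of 4 tested probe sets were called in any comparison by limma. Between the lines, 2 of them had an unadjusted p under 0.05, where 23.1% of all tested probe sets reached that level. These 2 belong to different genes. The log2 differences were -0.48 for SUT2/SUT4 (adjusted p = 0.0673) and -0.46 for the first of 2 probe sets of the other gene that carries the synonym SUT2 (adjusted p = 0.07). Both were lower in the overexpression line, opposite to SWEET14. The 7 invertase genes, which split sucrose into hexoses, had 0 calls between the lines and a median of 0.01, with 1 unadjusted p under 0.05. The 7 hexokinase probe sets had 0 calls and a median of -0.09, with 1 unadjusted p under 0.05, and the monosaccharide transporter gene MST3 differed by -0.03.

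In the overexpression line against the wild type, 0 of the 30 probe sets were called by limma. An unadjusted p under 0.05 was reached by 1 of them and by 7.11% of all tested probe sets. The genes with the smallest p were the sucrose synthase gene SUS1, with a log2 change of -0.18 in its second probe set (adjusted p = 0.665), and SUT2, with -0.32 in its second probe set (adjusted p = 0.76). The median over the 30 was -0.07.

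**Figure D4:**
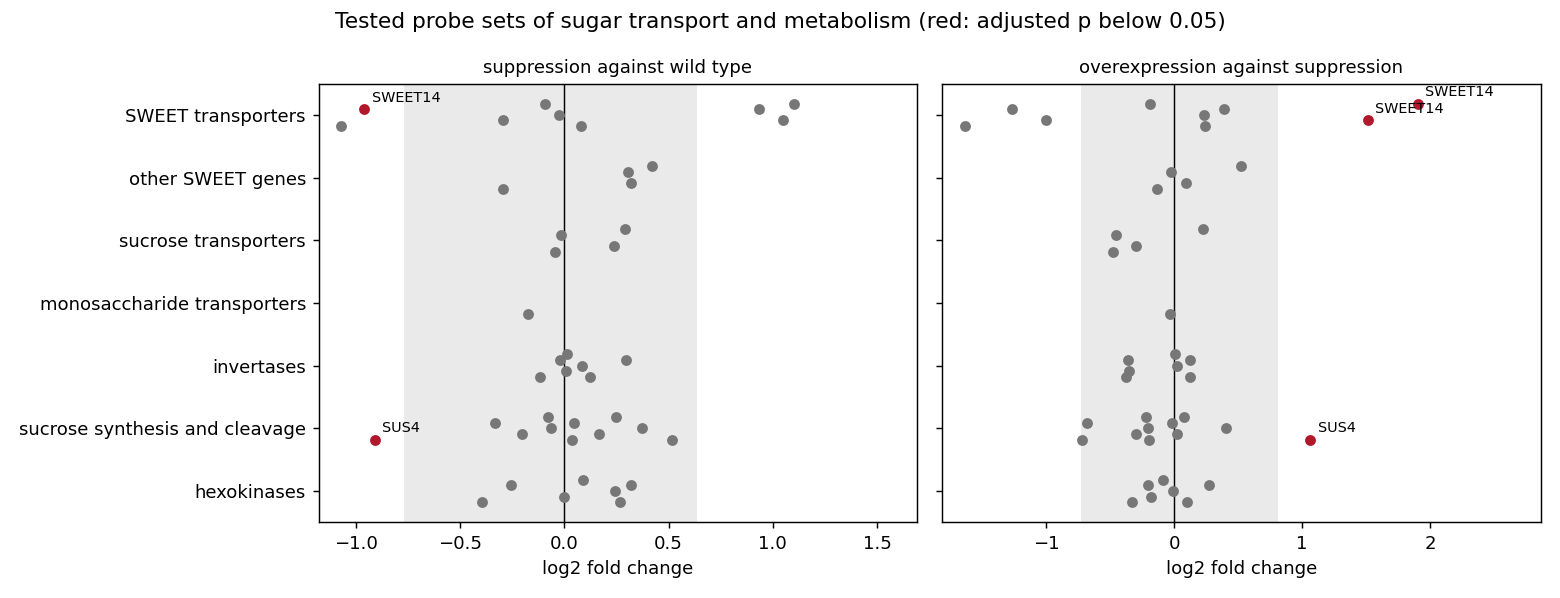
Log2 fold change of each tested probe set in the SWEET genes and in lists of other genes of sugar transport and metabolism, for the suppression line against the wild type and for the overexpression line against the suppression line. Points are probe sets, red where the adjusted p was below 0.05, and the grey band spans the 5th to 95th percentile of all tested probe sets. SWEET14 and SUS4 are the labelled genes, lower in the suppression line in both panels.

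The named genes whose pattern over the 6 arrays was most like that of the first SWEET1A probe set, taken as the tested member probe set with the highest mean signal, were BASS2, KRP1, OsCXXS1, FON1 and bip104, out of 2752 named probe sets. The measure of likeness, Pearson's r of log2 values over the 6 arrays, was 0.98 to 0.99 for these and is a description of the best of many. For the first SWEET14 probe set, added after its values were seen, the nearest were FON1, OsC3H37, FLO6, KRP1 and OsTBL13, with r of 0.99 to 1.00. Of these, OsC3H37, a gene for a CCCH zinc finger protein, was higher in the overexpression line than in the suppression line by 1.28 on the log2 scale (limma adjusted p = 0.00187), and FLO6 by 0.55 (adjusted p = 0.0351). FON1, KRP1 and OsTBL13 were not called (limma adjusted p = 0.0717, 0.104 and 0.227). All were picked for following SWEET14, which separates the lines, so these differences are tied to the choice and are no support.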

How the data were processed

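The deposited values are signal intensities on a linear scale, 1 per probe set and array. Per the labels' protocols, RNA was extracted with TRIzol and 6 µg was made into biotinylated cRNA. No source used here names the summarising software. Equal trimmed means (2% off either end) show that the depositors had brought the arrays to 1 scale, so a change in total RNA cannot be seen.

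The 123 control probe sets were left out. Before testing, 3.3 (the 10th percentile of the signals) was added to each value and log2 taken, which understates fold changes of dim probe sets. limma 3.58.1 in R 4.3.3 was fitted over the 3 groups (eBayes with a variance trend, 3 residual and 5.21 prior degrees of freedom). It covered 30366 probe sets and left out 26892. Tests were two-sided at 0.05 after a Benjamini-Hochberg adjustment that spanned every tested probe set. The fit was tested on simulated data. The 2 arrays a group limit the precision of every value.

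Gene names came from the array's annotation table and from the names listed for assembly ASM3414082v1. Symbols were matched with or without the prefix Os, and 5 matches that share an abbreviation with another family were left out. No sequence table was used here. The rule named every member probe set, called genes of the sugar lists (or the 2 with the smallest p) and the 5 nearest patterns of the brightest tested member. Members and lists were chosen with earlier results of these data known. The overexpression and wild-type arrays of the same number did not deviate together (r = -0.015 across probe sets), so no block was used. The suppression arrays share 1 number with the others and were not checked for pairing.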

Additional observations from a re-analysis of the deposited data

How the results depend on the processing

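The limits are 2 arrays a group, no detection call, and line confounded with selection drug. Where a fit leaves out 1 array, the other array of its group is taken to vary as arrays of other groups do. The count of called member probe sets between the lines was 2 and became 0 without the variance trend and 1 (of 7 genes) after averaging the probe sets by gene, and it was 2 in every fit that left out 1 array. In the suppression line against the wild type the count was 1 and became 0 without the filter on dim probe sets, without the variance trend, in the fit of the 4 arrays compared (chosen after seeing the data) and in every fit that left out 1 array (0 to 0). The average of both SWEET14 probe sets, fitted as 1 gene, passed there (log2 change -1.01, limma adjusted p = 0.0469). For the 5 sugar lists, the count of 1 became 0 without the variance trend in both comparisons that had it, and 0 in the fit of the 4 arrays for the suppression line, and was 0 to 1 with 1 array left out. In the overexpression line against the wild type both counts were 0 under every alternative run. With the mean of its probe sets, SWEET1A gave -0.22, 0.48 and -0.70 in the 3 comparisons (overexpression against wild type, suppression against wild type, and between the lines). These signs are opposite to those of its bright first probe set (0.142, -0.094 and 0.235). They are those of its dim second probe set (-0.587, 1.049 and -1.636).

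With 1 array left out, some uncalled log2 values changed sign. In the overexpression line against the wild type these were the second SWEET1A probe set (-1.868 to 0.695), SWEET2A (-0.167 to 0.06), SWEET15 (-0.701 to 0.027), SWEET16 (-0.664 to 0.864) and SUS4 (-0.007 to 0.316). In the suppression line they were the second SWEET1A probe set (-0.232 to 2.33), SWEET4 (-0.017 to 0.18) and SWEET11 (-0.403 to 0.35). SWEET14 kept its sign in all alternatives. In all, 388 of the alternative values for the members and SUS4 kept direction and side of the threshold, 21 lost a call, 1 gained one and 14 changed sign. The 1 gain is the first SWEET14 probe set in the suppression line, set against the average of both its probe sets, so it is not a result of that probe set alone. The cause of these changes was not tested.

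Over all probe sets, the 15 calls of the overexpression line were 3 with all 6 arrays above their median, 0 without the variance trend, 6 of 16099 by gene and 5 to 36 with 1 array left out (lowest without overexpression replicate 1, highest without wild-type replicate 2). The 698 of the suppression line were 425 without a filter, 26 without the trend, 418 by gene (2.6% of the genes) and 171 to 583 with 1 array left out. The 1992 between the lines were 1255 without a filter, 69 without the trend, 1412 by gene (8.77%) and 463 to 1410 with 1 array left out. With the replicate number as a block, the overexpression line had 11 calls and the SWEET14 probe sets read 0.838 and 0.557 (adjusted p = 0.628 and 0.693). No block was fitted for the other comparisons, whose groups share 1 number.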
